A study of Mus musculus with 71 samples.

Results

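The ephrin ligands are the 8 mouse genes Efna1 to Efna5 and Efnb1 to Efnb3, chosen by symbol from the 37681 gene rows that each table of the series holds. RNA-seq had been performed on micro-punches of the nucleus accumbens (NAc), ventral tegmental area (VTA) and prefrontal cortex (PFC) of wild type C57BL/6 mice (C57BL/6J in the methods of the study), with male and female mice used in the study. The methods give the mice as 8 weeks old. Their age at tissue collection is not stated there, and it cannot be told apart from the time point. All groups were first trained with food pellets, received a jugular catheter, and then worked in 2 h sessions on 21 days for infusions of saline or of cocaine at 0.7 mg/kg, so the saline mice carry the training and surgery too. Tissue was collected 1 day or 28 days after the last session, which gave 12 groups of 6 libraries each, except saline VTA at 28 days with 5, and 71 libraries in all. The genes were selected with the cocaine against saline values of these tables known, so those values are given below as a description. The levels across regions in saline mice were not used in the choice.

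Ephrins are membrane-bound ligands of the Eph receptor tyrosine kinases, and both partners sit on the surface of touching cells. Ligands of the A class are held by a lipid anchor and mostly bind EphA receptors, while ligands of the B class span the membrane and mostly bind EphB receptors and EphA4. Binding signals into both cells, into the receptor cell as forward and into the ligand cell as reverse signalling, and the family is known for guiding axons and for shaping dendritic spines, excitatory synapses and blood vessels. In the midbrain and striatum, ephrins take part in laying out the dopamine projections.

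Libraries held between 20971967 and 49700932 reads on genes (median 28682156). The markers of each region were in place: the summed RPKM (reads divided by gene length and library size) of 9 striatal medium spiny neuron markers was 1634 to 3738 in NAc libraries, that of 9 midbrain dopamine neuron markers was 648 to 2582 in VTA libraries, and that of 9 cortical excitatory neuron markers was 494 to 827 in PFC libraries. The cortical sum was 9.54 to 293 RPKM in NAc libraries (median 71.1), and its part in the NAc values was not tested. A few libraries stood apart. One saline PFC library at 28 days, library 4 of its table, had a medium spiny neuron sum of 1348, where the 11 others of its table had 92.7 to 126. Cocaine replicate 6 of the VTA at 1 day and saline library 4 of the VTA at 28 days had the highest sums of 5 meningeal fibroblast markers, 237 and 205 RPKM. Cocaine replicate 6 and saline replicate 6 of the VTA at 1 day also had the highest sums of 5 choroid plexus markers, 150 and 61.0 RPKM. Ligand values that moved most without these libraries are given in both forms, and receptor values are given with all libraries. In bulk tissue, fewer cells of a type and less RNA per cell cannot be told apart.

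On the per-length RPKM scale, Efnb3, a transmembrane ligand found on many neurons, was the most abundant ephrin in each of the 12 groups, with group means of 34.9 to 85.0 RPKM. It made up 41.4% to 81.7% of the summed RPKM of the 8 ligands. Efnb2, the ligand of neurons and of arterial endothelium, and Efna3 shared the 2nd and 3rd places, with group means of 3.26 to 27.3 and 7.78 to 25.2 RPKM. Efna1, known from vascular endothelium, Efna2, Efnb1 and Efna5 lay between 0.693 and 4.63 RPKM. Efna4 was last in each group, at 0.0825 to 0.304 RPKM. Its counts were 1 to 41 reads per library (median 7), which limits the precision of its values, whereas Efnb3 had 2583 to 13951 reads. None of the 8 ligands had 0 reads in any library.

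In mm9 coordinates, Efna1 (chr3:89075655-89085064), Efna3 (chr3:89117821-89126887) and Efna4 (chr3:89137312-89141950) lie next to each other on the minus strand of chromosome 3. Efna2 lies on chr10:79642227-79652755 and Efnb1 on chrX:96331469-96344330, both on the plus strand. Efna5 (chr17:62953533-63230666), Efnb2 (chr8:8617434-8661239) and Efnb3 (chr11:69367594-69373707) are on the minus strand. Exons of Efna3 overlap those of the antisense lincRNA Gm15998 by 344 bases, and exons of Efna4 those of 4731419I09Rik by 168 bases. The strand used in counting is not given in the sources used here, so reads on these stretches cannot be assigned. A second gene model also named Efna5 shares 2416 of the 4032 exon bases of Efna5. It held no reads in any of the 71 libraries, and the part of that overlap in the per-length level of Efna5 was not tested.

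**Figure D1:**
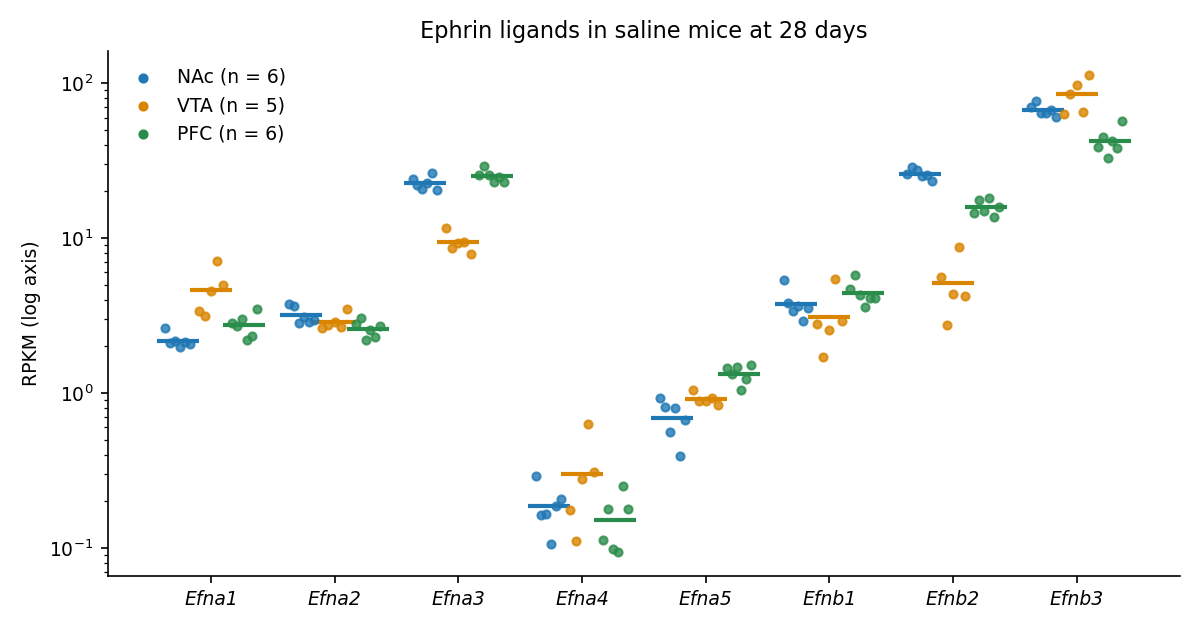
RPKM of the 8 ephrin ligands (log axis) in saline mice at 28 days, 1 point per library with the group mean as a line, for the NAc (blue, n = 6), VTA (orange, n = 5) and PFC (green, n = 6). Efnb3 is highest and Efna4 lowest in all 3 regions, and Efnb2 and Efna3 drop in the VTA.

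The 3 regions were compared in the saline mice at 28 days, whose 3 tables hold raw counts and were fitted together with edgeR (quasi-likelihood test, Benjamini-Hochberg adjustment over 17181 genes). CPM are counts scaled to a common library size, here with TMM factors over these tables. The labels do not say whether the 3 regions came from the same mice, and the test treats the libraries as independent. All 8 ligands passed the filter on low counts. Between the NAc and VTA, 3 of 8 passed an adjusted p of 0.05, 2 of them higher in the NAc, where 62.5% of all genes passed. Between the NAc and PFC, 3 of 8 passed, 2 of them higher in the NAc, against 40.7% of all genes. Between the VTA and PFC, 6 of 8 passed, 2 of them higher in the VTA, against 57.8% of all genes. The median log2 fold changes of the ligands were 0.01, 0.02 and -0.34, beside -0.03, 0.02 and 0.02 over all genes.

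Efnb2 had the widest range across regions. In saline mice it ranged from 104 to 124 CPM in the NAc (median 115), from 62.7 to 82.0 in the PFC (median 69.3) and from 11.6 to 34.2 in the VTA (median 18.0). The 3 groups did not overlap, and the share of all genes for which this held was not counted. The log2 difference was 2.45 (SE 0.195, edgeR adjusted p = 6.79e-09) for the NAc against the VTA, 0.68 (SE 0.172, adjusted p = 0.00402) for the NAc against the PFC and -1.77 (SE 0.190, adjusted p = 3.33e-07) for the VTA against the PFC. Without saline PFC library 4, which carried the striatal markers, the NAc to PFC difference was 0.75. Without saline VTA library 4, the NAc to VTA difference was 2.72. The cocaine mice gave 2.41, 0.86 and -1.55 for the same 3 comparisons, in the same order. At 1 day, the saline group means of Efnb2 were 26.4, 14.9 and 3.26 RPKM in the NAc, PFC and VTA.

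Efna3, of the A class, was also low in the VTA, but unlike Efnb2 it was not lower in the PFC than in the NAc. Saline levels were 50.0 to 65.4 CPM in the NAc (median 54.1), 56.4 to 71.1 in the PFC (median 62.0) and 17.8 to 26.0 in the VTA (median 20.3). The NAc exceeded the VTA by a log2 difference of 1.39 (SE 0.093, adjusted p = 7.42e-10) and the difference of the VTA from the PFC was -1.58 (SE 0.094, adjusted p = 1.64e-10). The NAc and PFC overlapped, with a difference of -0.18 (SE 0.085, adjusted p = 0.0979, or 0.0464 without VTA library 1).

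Efnb3 had another order, at 197 to 245 CPM in the NAc, 109 to 189 in the PFC and 189 to 345 in the VTA of saline mice. Its level in the PFC was lower than in the NAc (log2 difference NAc against PFC 0.62, SE 0.142, adjusted p = 0.00176) and lower than in the VTA (VTA against PFC 0.86, SE 0.148, adjusted p = 7.27e-05). The NAc and VTA overlapped (-0.24, SE 0.148, adjusted p = 0.166), and without VTA library 1 that difference was -0.33 (adjusted p = 0.0494). Efnb1 was higher in the PFC than in the VTA, by -0.68 for the VTA against the PFC (SE 0.214, adjusted p = 0.0117), and its levels in the NAc overlapped both. Leaving out saline VTA library 4 made the NAc to VTA difference of Efnb1 0.69 (adjusted p = 0.00146), from 0.40 (adjusted p = 0.113) with all libraries.

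Efna5, a ligand known for repelling retinal and cortical axons, was highest in the PFC, at 4.36 to 6.34 CPM, beside 1.66 to 3.66 in the NAc and 3.20 to 4.00 in the VTA. The difference of the NAc from the PFC was -0.99 (SE 0.155, adjusted p = 5.72e-05), and that of the VTA from the PFC was -0.69 (SE 0.162, adjusted p = 0.0013). The NAc and VTA did not pass (-0.29, adjusted p = 0.124). Efna1 was highest in the VTA, at 4.96 to 10.5 CPM, beside 3.36 to 4.18 in the NAc and 3.74 to 5.89 in the PFC. The NAc was below the VTA by -0.98 (SE 0.172, adjusted p = 8.25e-05), and the VTA was above the PFC by 0.60 (SE 0.171, adjusted p = 0.00566). Without VTA library 4, which held the highest value, these were -0.79 and 0.42 (adjusted p = 0.000152 and 0.0203). In the cocaine mice the difference of Efna1 between the VTA and PFC was -0.069 (adjusted p = 0.693) and that between the NAc and VTA was -0.32 (adjusted p = 0.0596), so neither passed there. The NAc against PFC difference of Efna1 was -0.38 (adjusted p = 0.0807), and -0.37 (adjusted p = 0.0323) without VTA library 4. Efna2 and Efna4 passed in none of the 3 comparisons. For Efna2 the adjusted p was 0.0534 for the NAc against the VTA (log2 difference 0.25) and 0.0607 for the NAc against the PFC (0.25). Leaving out NAc library 3, 4, 5 or 6, VTA library 5 or PFC library 1, 2, 4 or 5 brought the first under 0.05 (lowest 0.0170, without VTA library 5), and leaving out NAc library 3, 5 or 6, VTA library 1 or 5 or PFC library 2 brought the second under it (lowest 0.0321, without PFC library 2). For Efna4 the VTA against PFC difference of 0.84 (adjusted p = 0.0653) passed without VTA library 1 (adjusted p = 0.0352) or 2 (0.0219) or PFC library 5 (0.0353), all of them saline.

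The receptors were compared across the same regions. Of 9 EphA receptors, 6, 3 and 5 passed for the NAc against the VTA, the NAc against the PFC and the VTA against the PFC, and of 5 EphB receptors 4 passed in each, beside 62.5%, 40.7% and 57.8% of all genes. Epha4, which binds ligands of both classes, was higher in the NAc than in the VTA by 1.56 and lower in the VTA than in the PFC by -1.58 on the log2 scale. Epha7 gave 1.68 and -1.51. Ephb6, a receptor without kinase activity, was lower in the NAc than in the PFC by -1.78 and lower in the VTA than in the PFC by -2.32. Ephb2, a receptor of excitatory synapses, was lower in the NAc than in the VTA by -1.68 and lower than in the PFC by -1.52. Of 15 genes of ephrin signalling, such as adaptors and exchange factors, 10, 7 and 12 passed, beside the same shares of all genes. The exchange factor Kalrn was higher in the NAc than in the VTA by 3.05 and lower in the VTA than in the PFC by -4.07.

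Over the 35 libraries at 28 days, which differ mostly by region, the gene whose log2 CPM ran most like that of Efnb2 among 17679 genes was Galntl4 (Pearson r = 0.98), followed by Neto1 and Ryr1 (both 0.98). For Efna3 they were Bai2, Epb4.9 and Grin1 (each 0.98), for Efnb3 Tm7sf3 (0.93), for Efna5 Dnahc5 (0.92), for Efna1 Zic2 (0.89), for Efnb1 Moxd1 (0.86), for Efna2 Tcf3 (0.72) and for Efna4 9630028B13Rik (0.69). Among the ligands themselves, r was 0.85 between Efna3 and Efnb2 and -0.77 between Efna5 and Efnb3. These values describe libraries that share their regions.

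Each table was then split by treatment, to describe the ligands at early and late abstinence. Of 44 log2 fold changes of ligands that passed a filter on low values, 40 lay within 0.35 of 0. The other 4 were all in the VTA, Efnb2 and Efnb1 at 1 day and Efna1 and Efna4 at 28 days. Efna3 in the VTA and Efna4 in the PFC, both at 28 days, lay just within the limit, at 0.33. The share of all genes beyond 0.35 in each table was not counted. At an adjusted p of 0.05, 1 of 7 ligands passed in the VTA at 1 day, where 0.186% of all genes passed (limma on log2(RPKM + 0.1)), and 2 of 7 had an unadjusted p under 0.05, as did 15.4% of all genes. In the VTA at 28 days 0 of 8 passed with edgeR, as did 0.0% of all genes, with 2 under an unadjusted 0.05, where 11.5% of all genes were. In the NAc 0 of 7 ligands passed at 1 day and 0 of 7 at 28 days, where 0.0126% and 0.0% of genes passed with edgeR, and for no ligand was the unadjusted p under 0.05, beside 4.01% and 6.76% of all genes. In the PFC 0 of 7 passed at 1 day with limma and 0 of 8 at 28 days with edgeR, beside 0.00693% and 0.0% of genes, again with no ligand under an unadjusted 0.05, beside 4.15% and 5.66% of all genes. DESeq2 called no ligand in the NAc, in the PFC or in the VTA at 28 days either. Efna4 was below the filter in the 4 tables with 7 ligands. As these contrasts served to choose the genes, nothing is read from the counts.

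**Figure D2:**
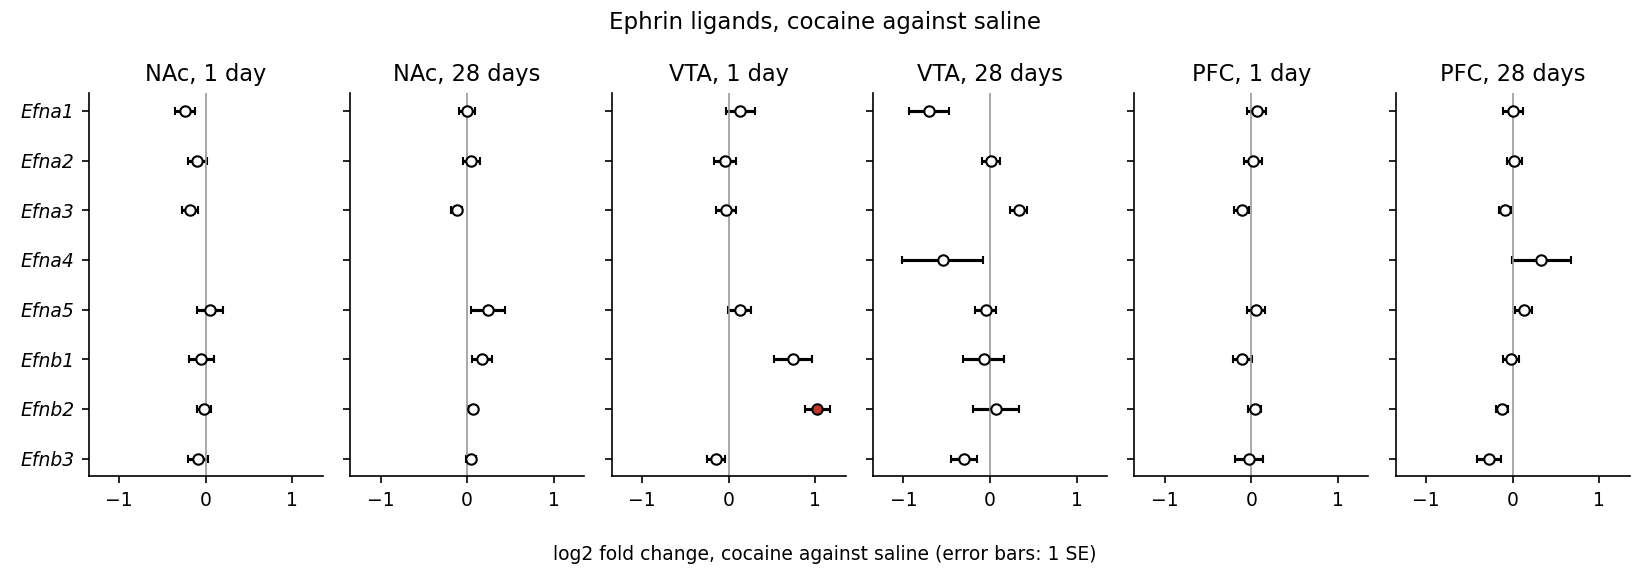
Log2 fold change of cocaine against saline for each ephrin ligand in the 6 tables, with error bars of 1 SE. Efnb2 in the VTA at 1 day (1.03, filled) is the point past an adjusted p of 0.05, and open points are not. Efna4 is missing where it did not pass the filter on low values.

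Efnb2 was higher in the VTA 1 day after cocaine, in a contrast that was known when the genes were chosen. The 6 cocaine libraries held 6.36, 7.03, 7.42, 7.26, 5.55 and 6.15 RPKM, and the 6 saline libraries 2.70, 3.62, 4.33, 2.31, 3.86 and 2.77 RPKM, in the order of their replicate numbers. Each cocaine library lay above each saline library, as was the case for 1.3% of all genes tested in this table. The means were 6.63 ± 0.726 and 3.26 ± 0.786 RPKM (SD, n = 6 each). The log2 fold change was 1.03 (SE 0.144, limma adjusted p = 0.0301). With edgeR on the whole reads recovered from the RPKM of the same libraries it was 0.98 (adjusted p = 0.0312). Even so, the level after cocaine stayed below that of the PFC and NAc, where the lowest library of any group at 1 day held 12.3 RPKM.

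The adjusted p was close to the threshold. Leaving out single libraries gave log2 fold changes of 0.94 to 1.11 with adjusted p-values of 0.0253 to 0.0845. The call was lost in 7 of 12 cases, without cocaine replicate 2 (adjusted p = 0.0797), 3 (0.0712), 4 (0.0598) or 5 (0.0502) and without saline replicate 1 (0.0845), 2 (0.0695) or 6 (0.0672). With the cortical markers as a covariate the log2 fold change was 0.86 (SE 0.197, adjusted p = 0.299), and no gene passed in that fit. With no filter on low values the adjusted p was 0.0549. Efnb2 also did not pass in a fit with the replicate number as a further term.

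Efnb1, the other transmembrane ligand with values in this direction, held 1.85, 1.88, 2.45, 1.97, 1.33 and 3.52 RPKM after cocaine and 0.914, 1.33, 1.95, 1.18, 0.936 and 1.12 RPKM after saline. All 6 cocaine libraries exceeded the mean of the saline group, and 3 exceeded its highest library. The log2 fold change was 0.74 (SE 0.220, adjusted p = 0.174, limma), and 0.59 without cocaine replicate 6. DESeq2 on the recovered reads gave 0.76 with an adjusted p of 0.0325. Efnb3, the third member of the class, was not higher, with means of 73.3 RPKM after cocaine and 81.7 after saline (log2 fold change -0.14, SE 0.103). Efna1 (0.14, or 0.02 without cocaine replicate 6), Efna5 (0.13), Efna2 (-0.04) and Efna3 (-0.03) had smaller values.

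The promoters of Efnb2 and Efnb1 are shown because these 2 ligands had the largest log2 fold changes here. The sequences are the 250 bases upstream of the RefSeq start, read 5′ to 3′ on the strand of the gene. They match mm9 at chr8:8661243-8661492 (minus strand) and chrX:96331150-96331399 (plus strand). Capitals mark the half-site of the cAMP response element, TGACG or its reverse complement CGTCA.
Efnb2: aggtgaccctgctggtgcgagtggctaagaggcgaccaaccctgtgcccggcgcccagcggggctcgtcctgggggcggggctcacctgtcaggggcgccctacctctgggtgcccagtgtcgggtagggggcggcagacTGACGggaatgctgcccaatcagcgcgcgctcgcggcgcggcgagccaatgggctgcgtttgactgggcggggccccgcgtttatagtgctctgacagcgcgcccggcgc
Efnb1: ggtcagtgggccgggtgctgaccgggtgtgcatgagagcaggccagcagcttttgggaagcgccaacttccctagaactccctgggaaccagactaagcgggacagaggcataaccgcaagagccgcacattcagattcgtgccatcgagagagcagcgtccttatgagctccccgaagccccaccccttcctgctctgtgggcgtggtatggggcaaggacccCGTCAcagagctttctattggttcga

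The half-site began 110 bases upstream of the start in Efnb2 and 26 bases upstream in Efnb1. Of the 7 ligands with a window of 300 bases in the RefSeq table (GRCm38.p6, 250 bases before to 50 after the start, both strands searched), these 2 held TGACG, which was present in 20.8% of all 32851 windows. No window of the 7 ligands held the full element TGACGTCA (1.79% of all windows, each of which also counts for the half-site) or AAAGGTCA, the element to which NR4A1 binds (1.51% of all windows). A match describes the letters of the window.

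Several marker lists differed with treatment in the VTA at 1 day. The sum of the 9 cortical markers was 16.0 to 83.0 RPKM after cocaine and 9.50 to 37.8 after saline, with 9 of 9 higher on average. That of 5 meningeal fibroblast markers was 37.0 to 237 and 13.0 to 69.9, with 5 of 5 higher, and that of 9 endothelial markers was 136 to 268 and 132 to 184, with 9 of 9 higher. The 9 dopamine neuron markers summed to 648 to 1529 after cocaine and 1082 to 2469 after saline, with 0 of 9 higher, and the 8 microglia markers to 97.1 to 167 and 147 to 230, with 0 of 8 higher. Of 7 oligodendrocyte markers 0 were higher, and of 5 choroid plexus markers 4 were. The 9 medium spiny neuron markers summed to 133 to 173 RPKM after cocaine and 116 to 178 after saline, with 7 of 9 higher. Of 6 hippocampal markers 4 were higher, of 6 thalamic markers 3 and of 6 astrocyte markers 2. No marker of these lists was at 0 in all libraries.

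The cortical sums of the treatments overlapped, and Efnb2 did not pass in the fit with the cortical covariate given above. Saline replicate 4, with the lowest Efnb2 (2.31 RPKM), had the lowest dopamine neuron sum of the saline libraries (1082) and also the lowest meningeal sum (13.0). Cocaine replicate 6 was highest in both Efnb1 and the meningeal sum (3.52 RPKM and 237), and saline replicate 3, which had the highest Efnb1 of the saline libraries (1.95 RPKM), had the highest saline meningeal sum (69.9). Cocaine replicate 6 was also highest in choroid plexus and endothelial markers. Apart from the fit with the cortical covariate, the part of these markers in the Efnb2 and Efnb1 values was not tested.

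**Figure D3:**
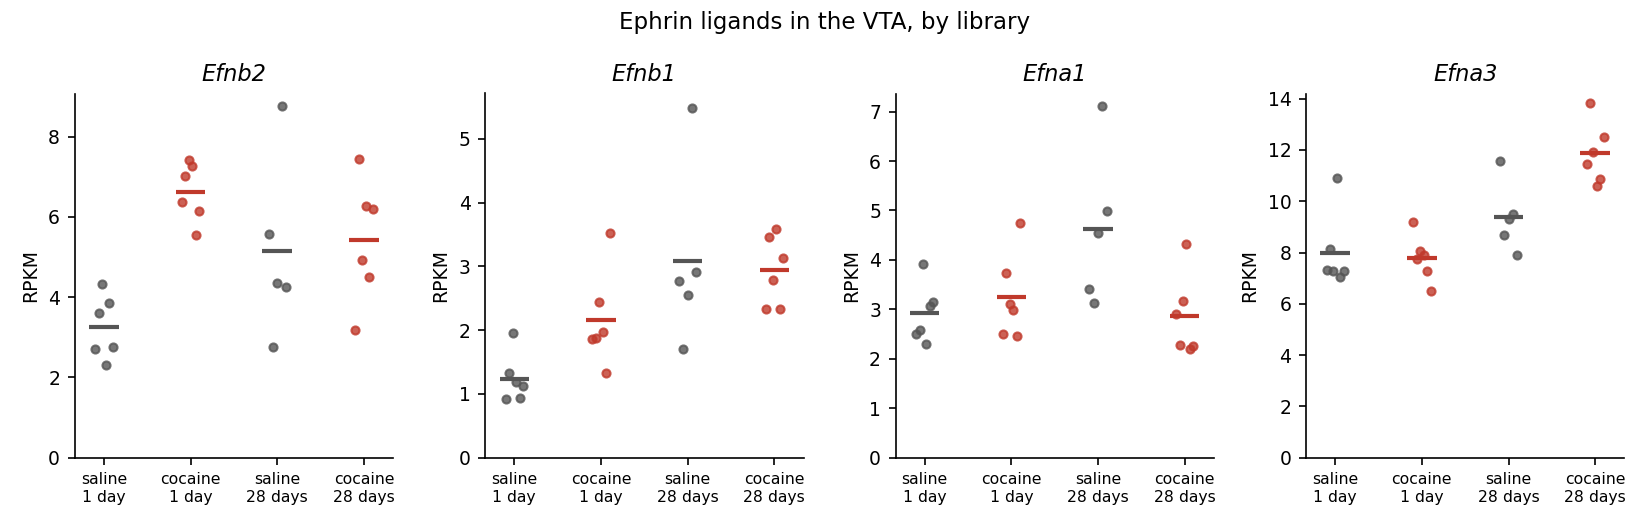
RPKM of Efnb2, Efnb1, Efna1 and Efna3 in the VTA by library, saline (grey) and cocaine (red) at 1 day and 28 days, with group means as lines. Efnb2 separates the groups at 1 day and not at 28 days, while Efna1 is lower and Efna3 higher on average after cocaine at 28 days.

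At 28 days the treatments overlapped in Efnb2 in the VTA. It held 14.0 to 31.7 CPM after cocaine (median 24.1, n = 6) and 12.1 to 37.0 after saline (median 18.9, n = 5), with a log2 fold change of 0.07 (SE 0.266, edgeR adjusted p = 0.919). Efnb1 gave -0.07 (SE 0.240) and Efnb3 -0.30 (SE 0.151, adjusted p = 0.453), which was -0.38 without saline library 4 and -0.17 without saline library 5. Whether the change of Efnb2 differed between the time points was not tested in the VTA.

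Efna1 was lower on average 28 days after cocaine. The cocaine libraries held 4.83, 3.67, 5.19, 7.00, 3.62 and 3.69 CPM and the saline libraries 5.64, 5.21, 7.46, 11.4 and 8.23 CPM. Of the 6 cocaine libraries, 5 lay below all saline libraries. The log2 fold change was -0.70 (SE 0.232, unadjusted p = 0.0106, edgeR adjusted p = 0.394), and -0.50 without saline library 4, which held the highest value. Efna3 was higher on average, at 27.6, 32.2, 28.2, 24.8, 25.8 and 29.5 CPM after cocaine beside 27.7, 20.9, 22.1, 21.9 and 18.9 CPM after saline. The saline mean was exceeded by all 6 cocaine libraries and the highest saline library by 3, with a log2 fold change of 0.33 (SE 0.101, unadjusted p = 0.00668, edgeR adjusted p = 0.389), and 0.33 without saline library 4 as well. Neither passed the adjusted threshold, nor did they with DESeq2 (adjusted p = 0.166 and 0.148). Efna4 gave -0.55 (SE 0.471) from 4 to 41 reads per library, and -0.09 without saline library 4.

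Marker lists differed with treatment at 28 days too. The endothelial sum was 149 to 218 RPKM after cocaine and 176 to 360 after saline, with 0 of 9 markers higher, and the meningeal sum was 11.4 to 83.0 and 13.5 to 205, with 0 of 5 higher. The cortical sum was 13.5 to 30.2 RPKM after cocaine (median 18.2) and 14.1 to 95.2 after saline (median 37.2), with 4 of 9 higher. Of 8 microglia and 7 oligodendrocyte markers 0 were higher after cocaine, while 8 of 9 dopamine neuron markers were. Higher after cocaine were also 5 of 9 medium spiny neuron, 4 of 6 thalamic, 3 of 6 astrocyte, 2 of 5 choroid plexus and 1 of 6 hippocampal markers. Saline library 4 had the highest endothelial sum, the highest meningeal sum and the highest Efna1 (11.4 CPM), Efnb1 (17.5 CPM) and Efnb2 (37.0 CPM). The part of these markers in the Efna1 and Efna3 differences was not tested. Without that library the log2 fold change of Efnb1 was 0.23 and that of Efnb2 0.35.

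**Figure D4:**
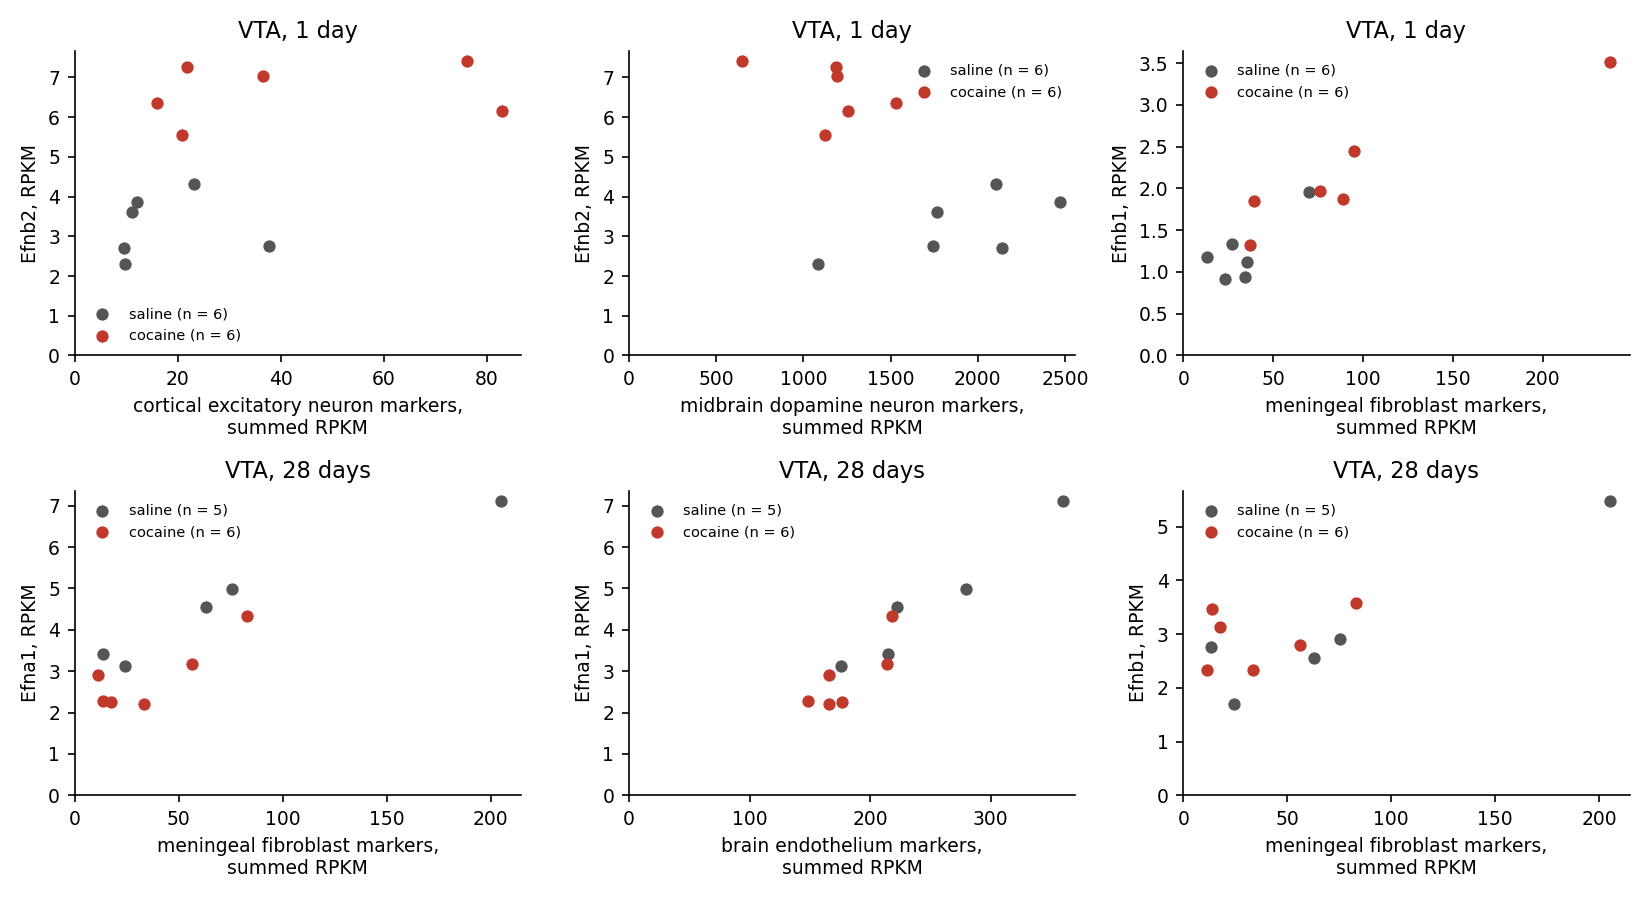
Ephrin ligands (RPKM) against summed RPKM of marker lists in single VTA libraries, saline (grey) and cocaine (red), at 1 day (top, n = 6 and 6) and 28 days (bottom, n = 5 and 6). Efnb2 at 1 day is 5.55 to 7.42 RPKM in cocaine libraries (cortical sums 16.0 to 83.0) and 2.31 to 4.33 in saline libraries (9.50 to 37.8). Efnb1 at 1 day and Efna1 at 28 days are highest where the meningeal sums are highest, at 237 and 205.

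In the NAc, Efnb2 held 93.7 to 131 CPM after cocaine (median 111) and 108 to 122 after saline (median 114) at 1 day, a log2 fold change of -0.02 (SE 0.078), and at 28 days 109 to 126 and 102 to 122 CPM, a log2 fold change of 0.06 (SE 0.055). Efna1 (-0.24, SE 0.117) and Efna3 (-0.18, SE 0.090) had the lowest values at 1 day, and each of their 6 cocaine libraries lay below the saline mean. At 28 days Efna3 gave -0.12 (SE 0.067), Efnb1 0.17 (SE 0.114) and Efna5 0.24 (SE 0.200). A single model over the 24 NAc libraries tested whether the treatment effect differed between the time points. Of 7 ligands 0 passed (0.0181% of all genes), with no unadjusted p under 0.05, and DESeq2 called none. The interaction terms ran from 0.07 for Efna3 to 0.24 for Efna1. Marker lists differed with treatment in the NAc too. At 1 day 0 of 8 microglia, 0 of 5 meningeal and 1 of 9 medium spiny neuron markers were higher after cocaine. Of 9 cortical markers 6 were higher. At 28 days 0 of 9 endothelial, 0 of 7 oligodendrocyte, 1 of 9 cortical and 1 of 9 medium spiny neuron markers were higher. Of 6 astrocyte markers 5 were. The part of these markers in the ligand values was not tested.

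In the PFC, ligand levels after cocaine and saline lay close together at 1 day, with log2 fold changes from -0.11 (Efna3, SE 0.084) to 0.06 (Efna1, SE 0.109). At 28 days Efnb3 held 81.6 to 142 CPM after cocaine (median 111) and 105 to 180 after saline (median 129), and its log2 fold change of -0.27 (SE 0.142, edgeR adjusted p = 0.842) did not pass and was -0.17 without saline library 6. Efnb2 gave -0.12 (SE 0.071), and -0.07 without saline library 4. Efna4 gave 0.33 (SE 0.338) from a few reads per library. Marker lists differed with treatment in the PFC as well. At 28 days 0 of 7 oligodendrocyte, 0 of 5 meningeal and 0 of 9 medium spiny neuron markers were higher after cocaine. Of 9 cortical markers 8 were higher, and of 6 astrocyte markers 6. At 1 day 7 of 7 oligodendrocyte markers were higher, and 0 of 8 microglia and 0 of 5 meningeal markers. The part of these markers in the ligand values was not tested.

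The receptors and partners of the ephrins were followed in the same comparisons. Of 9 EphA receptors, 7 to 9 passed the filter on low values, depending on the comparison, as did all 5 EphB receptors and 15 signalling partners. With the test of each table, 0 of these passed in any of the 6 comparisons, beside 0.0% to 0.186% of all genes. In the VTA at 1 day, 3 of 7 EphA receptors, 1 of 5 EphB receptors and 4 of 15 partners had an unadjusted p under 0.05, where 15.4% of all genes did. Epha3 was at 0.78 (SE 0.218) and Epha7 at 0.35 (SE 0.103), while Epha4 was at -0.22 (SE 0.083). Ephb1, a receptor for Efnb2, was at -0.25 (SE 0.070, adjusted p = 0.147), and Ephb4, the receptor that pairs with Efnb2 between arteries and veins, at 0.67 (SE 0.348, adjusted p = 0.379). In the VTA at 28 days, Epha10 (0.27), Ephb3 (-0.51), Ephb2 (0.23), Ephb6 (0.16) and 3 partners, Sdcbp (-0.20), Grip1 (0.21) and Kalrn (0.38), were under an unadjusted 0.05, where 11.5% of genes were. In the NAc and PFC, Ephb6 (-0.27, NAc at 28 days) and Tiam1 (-0.20, PFC at 28 days) were under that level, where 6.76% and 5.66% of all genes were.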

How the data were processed

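RNA was extracted from micro-punches and sequenced, and each of the 71 libraries was assigned to its group by its label. The authors aligned reads with STAR 2.4.1d to mm9 with the Ensembl annotation. The NAc tables and the VTA and PFC tables at 28 days were deposited by the authors as raw read counts per gene. The VTA and PFC tables at 1 day were deposited by the authors as RPKM. The authors' log2 fold changes and p-values of cocaine against saline, which the tables also hold, were not used, nor were 30 columns that match no sample. At 28 days the columns give only the group, so libraries carry a number within the group.

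Counts were tested in edgeR 4.0.16 (filterByExpr, minimum count 10 and total 15, TMM, glmQLFit, glmQLFTest) and RPKM in limma 3.58.1 on log2(RPKM + 0.1) for genes with a mean of at least 0.5, all over the whole table with Benjamini-Hochberg adjustment. Fold changes on that scale understate those of low genes. Whole reads were recovered from RPKM within 0.02 of a whole number for 100.0% of 23806 VTA and 23353 PFC genes. RPKM of the count tables were computed with the gene lengths from those steps. Levels set across tables were normalised separately. DESeq2 1.42.0 and R 4.3.3 served for alternatives, which were other scalings, filters, pseudocounts and thresholds, a replicate block, a cortical covariate and leaving out each library. The cocaine against saline fits with edgeR and limma and the NAc against VTA contrast were tested on simulated data. The other region contrasts, the NAc interaction, DESeq2, the replicate block and the covariate fit were not. The labels do not say that libraries are single mice, so p-values measure the spread between libraries.

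All 8 ligands are named, and for each list of receptors and partners the 3 genes with the smallest p per comparison, from which examples are given. The ligands, lists and marker genes were chosen with earlier results of these data known. Of 2 gene models with the symbol of a marker, that with more reads was used. Promoters were matched to RefSeq by symbol, for 7 of 8 ligands. No window was matched to Efnb3. Figures were drawn with matplotlib.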

Additional observations from a re-analysis of the deposited data

Results flagged for a closer look

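In 8 of 96 groups (8 ligands in 12 groups of 5 or 6 libraries), 1 library lay apart from the others by Dixon's criterion, which chance gives in about 1 of 20 groups, or 4.8 here. Efna1 was at 2.91 CPM in 1 cocaine NAc library at 28 days, where the next held 3.56, and the same library was lowest for Efnb3, at 189 CPM beside 219. Efna2 was at 4.81 CPM in 1 saline NAc library at 1 day (median 3.79) and at 1.14 RPKM in cocaine VTA replicate 5 at 1 day (median 1.66). Efna3 was at 10.9 RPKM in saline VTA replicate 4 at 1 day (median 7.30), the library with the lowest Efnb2. Efna4 was at 0.379 CPM in 1 cocaine NAc library at 1 day, from 9 reads, and at 0.955 RPKM in cocaine VTA replicate 6 at 1 day, from 38 reads. Efnb1 was at 16.9 CPM in 1 saline NAc library at 28 days (median 12.0).

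For 2 ligands every cocaine library moved one way from the saline mean in one region and the other way in another, and the difference was not tested. The share of all genes with such a pattern was not counted. Efna3 at 28 days had a log2 fold change of 0.33 in the VTA and -0.12 in the NAc. Efnb1 at 1 day had 0.74 in the VTA and -0.11 in the PFC.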

How the results depend on the processing

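The 1 ligand called for cocaine in the VTA at 1 day (Efnb2) depended on the setting. With no filter on low values, with the replicate block and with the cortical covariate the count was 0, and with an adjusted p under 0.25 or with DESeq2 on the recovered reads (added after seeing the data) it was 2, with Efnb1. Leaving out single libraries gave 0 to 1. Its log2 fold change stayed between 0.85 (with a pseudocount of 1) and 1.11. In the other 5 cocaine comparisons and in the NAc interaction the count was 0 under all alternatives run. The labels do not say whether equal replicate numbers at 1 day pair the samples, and correlations between libraries cannot decide it. Of the pairs of equal number, 3 of 6 in the NAc, 4 of 6 in the VTA and 1 of 6 in the PFC correlated over 0.1. In the same order, 2, 2 and 0 of 6 correlated best with their own number (in the VTA pairs 5 and 6, r = 0.49 and 0.46). The replicate block moved the genes called in the VTA from 28 to 13. No paired analysis was possible at 28 days because the columns carry no labelled replicate. The NAc against PFC count of 3 was 0 with a log2 fold change of at least 1 required as well, 6 in the cocaine libraries, and 3 to 5 with single libraries left out (5 without saline VTA library 1). The VTA against PFC count of 6 was 2 with that fold change, and 6 to 7 with libraries left out. The NAc against VTA count of 3 was 3 to 4 with libraries left out. Efna1, called for the VTA against the PFC, turned to -0.069 in the cocaine libraries. The causes were not tested.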
